A study of Mus musculus with 8 samples.

Results

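Antiviral effector genes of the type I interferon response, 10 in number, were followed in cultures of activated mouse microglia. The cultures received an adenosine A2A receptor antagonist alone or together with an adenosine A3 receptor agonist. The genes are Isg15, Usp18, Rsad2, Cmpk2, Mx1, Mx2, Bst2, Xaf1, Rtp4 and Ifi44, taken by their symbol from the deposited gene table, and all 10 were present among its 31406 genes and all 10 were among the 18756 genes with enough counts to be tested. Their levels were 5.5% to 15.8% lower in the group that received both ligands, with an estimate below 0 for 10 of 10 genes. Isg15 was the single gene of the 10 that passed the test over all genes (adjusted p = 0.0255, edgeR), beside 0.160% of all genes tested that were called lower.

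The libraries came from primary microglia of wild-type mice, the resident immune cells of the brain, which the study's methods describe as isolated from the striatum of newborn C57/BL6 pups and kept for 15 days in culture. All 8 cultures were activated for 48 h with LPS (0.01% v/v), a bacterial ligand of Toll-like receptor 4, and IFN-γ (0.002% v/v), and all 8 received SCH58261, an antagonist of the A2A receptor. By their titles, 4 of the cultures had no further ligand (A2A antagonist group), and the other 4 (dual group) also had 2-Cl-IB-MECA, an A3 receptor agonist, at 200 nM. The methods give 24, 32 and 40 h from the start of activation as the times at which ligand was put on the cells. The treatment field of the labels is the reverse of this, with the A3 agonist named for the antagonist libraries and missing for the dual ones, while the names of the deposited count columns go with the titles. Directions below follow the titles. The methods name a human IFN-γ reagent for these mouse cells, and IFN-γ is known to act in a species-specific manner. Cultures without ligand were not analysed here, so both groups carry the antagonist and the comparison holds no unactivated or untreated level. The methods count 4 pregnant animals for the study without saying which sample came from which. Nothing in the labels says that the 4 samples of a group came from separate animals. The p-values thus set the difference between groups against the spread between these samples, which may be technical.

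As background, type I interferons bind the receptor IFNAR on the cell that made them and on its neighbours, and the kinases JAK1 and TYK2 then activate transcription factors that bind the interferon-stimulated response element (ISRE) in the promoters of antiviral genes. LPS induces IFN-β through Toll-like receptor 4 and the adaptor TRIF, whereas IFN-γ uses its own receptor and acts mainly through the GAS element. In microglia the type I program is known from viral infection, ageing and injury, and Isg15, Usp18, Rsad2 and the Mx genes are among its usual readouts.

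Reference promoters (RefSeq, GRCm38.p6) were given for 6 of the 10 genes, Isg15, Rsad2, Cmpk2, Bst2, Xaf1 and Ifi44, as windows from 250 bases before to 50 bases after the gene start. Usp18, Mx1, Mx2 and Rtp4 were not matched. The ISRE core was searched as GAAANNGAAA on both strands, with N for any base, and 3 of these 6 windows (Isg15, Bst2 and Rsad2) held it, beside 943 of all 27025 promoters (3.49%). The 150 bases before the RefSeq start of these 3 genes are printed because they carry the element through which the antiviral program is known to be read. The bases of every ISRE match are in capitals, on the strand of the gene. For Bst2 the RefSeq start lies upstream of the start in the deposited coordinates given below.
Isg15, chr4:156200819-156200968, minus strand: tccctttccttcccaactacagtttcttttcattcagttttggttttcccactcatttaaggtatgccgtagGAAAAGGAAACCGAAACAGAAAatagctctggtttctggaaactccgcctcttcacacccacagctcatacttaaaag
Bst2, chr8:71537473-71537622, minus strand: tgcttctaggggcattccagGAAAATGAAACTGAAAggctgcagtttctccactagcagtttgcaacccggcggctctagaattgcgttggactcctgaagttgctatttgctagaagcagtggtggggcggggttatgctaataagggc
Rsad2, chr12:26456453-26456602, minus strand: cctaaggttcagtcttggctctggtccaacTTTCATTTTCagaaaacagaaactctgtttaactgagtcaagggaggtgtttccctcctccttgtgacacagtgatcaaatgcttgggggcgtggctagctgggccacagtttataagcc
In Isg15 the capitals hold 3 overlapping matches, in Bst2 they hold 2 overlapping matches, and in Rsad2 they hold 1 match that reads on the opposite strand. The GAS core was searched as TTCNNNGAA, which 2288 of the 27025 promoters (8.47%) held, and of the 6 windows that of Bst2 held it, at a place that overlaps its first ISRE match. The windows of Cmpk2, Xaf1 and Ifi44 held neither of these letter patterns. A match describes letters in the window and was not tied to any measurement of binding.

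Isg15 codes for a ubiquitin-like protein that is attached to newly made proteins and is also secreted, and its gene (ENSMUSG00000035692, chr4:156199424-156200818, GRCm38) had the largest difference of the 10. Its level, in counts per 1e6 counts (CPM) scaled with TMM factors, was 344, 365, 382 and 388 in the A2A antagonist libraries and 331, 321, 306 and 286 in the dual libraries (replicates 1 to 4 in each). Every dual library lay below every antagonist library. The mean fell from 370 ± 19.7 to 311 ± 19.5 CPM (SD, n = 4), a log2 fold change of -0.25 with a standard error of 0.045, and the difference passed the test (adjusted p = 0.0255, edgeR quasi-likelihood F test with Benjamini-Hochberg adjustment over all 18756 genes). Of all genes tested, 30 were called lower at this threshold (0.160%), beside 1 of the 10 antiviral genes. DESeq2 called 5 of the 10, beside 274 genes lower and 107 higher among the 11313 that it gave an adjusted p. The DESeq2 counts for the lists below stand beside these same totals. The call of Isg15 rested on several single libraries. Its adjusted p was 0.0648, 0.0849 and 0.0932 without antagonist replicates 2, 3 and 4 and 0.0859 without dual replicate 3, within a range of 9.7e-06 to 0.0932 over the 13 alternatives tried. Of the 31-base words of its transcript, 13.1% also occur in other genes, most of them in AC151275.1 (10.2%), so its counts depend in part on how shared reads were treated.

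Usp18 codes for the protease that removes ISG15 from its targets and that also restrains signalling at IFNAR (ENSMUSG00000030107, chr6:121245906-121270917). It was at 155, 167, 162 and 167 CPM in the A2A antagonist libraries and at 144, 151, 138 and 142 CPM in the dual libraries. The groups did not overlap, the means were 162 ± 5.64 and 143 ± 5.38 CPM (n = 4), and the log2 fold change was -0.18 (SE 0.037). Its adjusted p of 0.0532 (edgeR) missed the threshold and was the second smallest of the 10. It passed without antagonist replicate 1 (0.0177) and without dual replicate 2 (0.0392), within a range of 0.000534 to 0.169 over the alternatives. Usp18 shares 124 of its 2790 exonic bases with Gm44148 on the opposite strand, and the use of strand in counting was not stated.

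Rsad2 codes for viperin, an enzyme that converts CTP into a chain terminator of viral RNA synthesis, and Cmpk2 codes for a mitochondrial nucleotide kinase. They lie head to head with 12751 bases between them (chr12:26442746-26456452, minus strand, ENSMUSG00000020641, and chr12:26469204-26479837, plus strand, ENSMUSG00000020638). Rsad2 was at 119, 121, 129.8 and 129.3 CPM in the A2A antagonist libraries and at 112, 126, 108 and 112 CPM in the dual libraries. Dual replicate 2 lay above the 2 lowest antagonist libraries, so the groups overlapped. The log2 fold change of Rsad2 was -0.13 (SE 0.046, adjusted p = 0.22, edgeR).
Cmpk2 was at 73.9, 73.2, 81.4 and 78.0 CPM in the A2A antagonist libraries and at 68.9, 73.7, 67.3 and 72.1 CPM in the dual libraries. Dual replicate 2 was again the highest of its group and lay above the lowest antagonist library. The log2 fold change of Cmpk2 was -0.12 (SE 0.043, adjusted p = 0.235, edgeR).

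Mx1 and Mx2 code for dynamin-like GTPases that trap incoming viral components, and common laboratory strains of the mouse, C57BL/6 among them, are known to carry defective alleles of both. The deposited table classes Mx2 as a polymorphic pseudogene. They too lie head to head, 72400 bases apart (Mx1, ENSMUSG00000000386, chr16:97447035-97462907, minus strand, and Mx2, ENSMUSG00000023341, chr16:97535308-97560900, plus strand). Mx1 was at 53.6, 51.7, 62.0 and 57.2 CPM in the A2A antagonist libraries and at 53.2, 51.4, 47.7 and 50.3 CPM in the dual libraries. Dual replicate 1 lay within the antagonist range and the other 3 dual libraries below it. Its log2 fold change was -0.15 (SE 0.053, adjusted p = 0.22, edgeR).
Mx2 was at 78.2, 77.9, 83.7 and 82.5 CPM in the A2A antagonist libraries and at 73.7, 77.2, 67.6 and 69.4 CPM in the dual libraries. These ranges were apart by less than 1 CPM, and its log2 fold change of -0.16 (SE 0.044) did not pass (adjusted p = 0.112, edgeR). The transcripts share 31-base words (7.22% of those of Mx1 and 7.96% of those of Mx2), so a small part of either count could belong to the other.

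Bst2 codes for tetherin, a membrane protein that holds budding virions on the cell surface (ENSMUSG00000046718, chr8:71534255-71537456). It was at 726, 782, 834 and 811 CPM in the A2A antagonist libraries and at 754, 719, 697 and 626 CPM in the dual libraries. Dual replicate 1 lay above antagonist replicate 1, so the groups overlapped. The means were 788 ± 46.6 and 699 ± 54.3 CPM (n = 4), and the log2 fold change of -0.17 (SE 0.049) did not pass (adjusted p = 0.14, edgeR).

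Xaf1 codes for a partner of the apoptosis inhibitor XIAP (ENSMUSG00000040483, chr11:72301629-72313733). It was at 108, 126, 125 and 127 CPM in the A2A antagonist libraries and at 104, 113, 107 and 112 CPM in the dual libraries. Antagonist replicate 1 stood apart from the other 3 libraries of its group and within the dual range. The log2 fold change was -0.16 (SE 0.047, adjusted p = 0.154, edgeR), and without that library it was -0.21 with an adjusted p of 0.0177, within a range of 0.0177 to 0.394 over the alternatives.

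Rtp4, which codes for an interferon-induced chaperone of membrane receptors (ENSMUSG00000033355, chr16:23520291-23614222), had the smallest difference of the 10. It was at 203, 200.3, 210.0 and 195 CPM in the A2A antagonist libraries and at 190.3, 196, 181 and 196 CPM in the dual libraries. Dual replicates 2 and 4 lay just above the lowest antagonist library, and the log2 fold change was -0.08 (SE 0.036, adjusted p = 0.342, edgeR). It shares 296 of its 2131 exonic bases with Gm45338 on the same strand, so its counts are uncertain.

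Ifi44, an interferon-induced gene (ENSMUSG00000028037, chr3:151730922-151749960), was at 199.7, 206, 219 and 221 CPM in the A2A antagonist libraries and at 189, 196, 172 and 194 CPM in the dual libraries. The groups did not overlap. The means were 212 ± 10.2 and 188 ± 10.9 CPM (n = 4), and the log2 fold change of -0.17 (SE 0.043) missed the threshold (adjusted p = 0.0913, edgeR).

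Over the 10 genes the median log2 fold change was -0.16 (range -0.25 to -0.08), beside a median of 0.0038 over all genes tested, of which 9092 (48.5%) had an estimate below 0. All 10 genes had an unadjusted p under 0.05 with the dual group lower, a result that 1278 of the 18756 genes gave (6.81%). Of the 10, 4 had every dual library below every antagonist library, as did 761 of all genes (4.06%). All 10 are well measured, with at least 1735 counts in every library, and among the 4628 genes with a mean log2 CPM at or above that of Mx1, the lowest of the 10 (5.74), these shares were 13.5% and 8.15%. The 10 genes share the same 8 libraries and are not independent of each other. In these bulk samples, fewer cells of a type and less RNA per cell cannot be told apart. Nor can the transcripts of the 10 genes be assigned to microglia, since markers of other cells were also present (below).

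**Figure D1:**
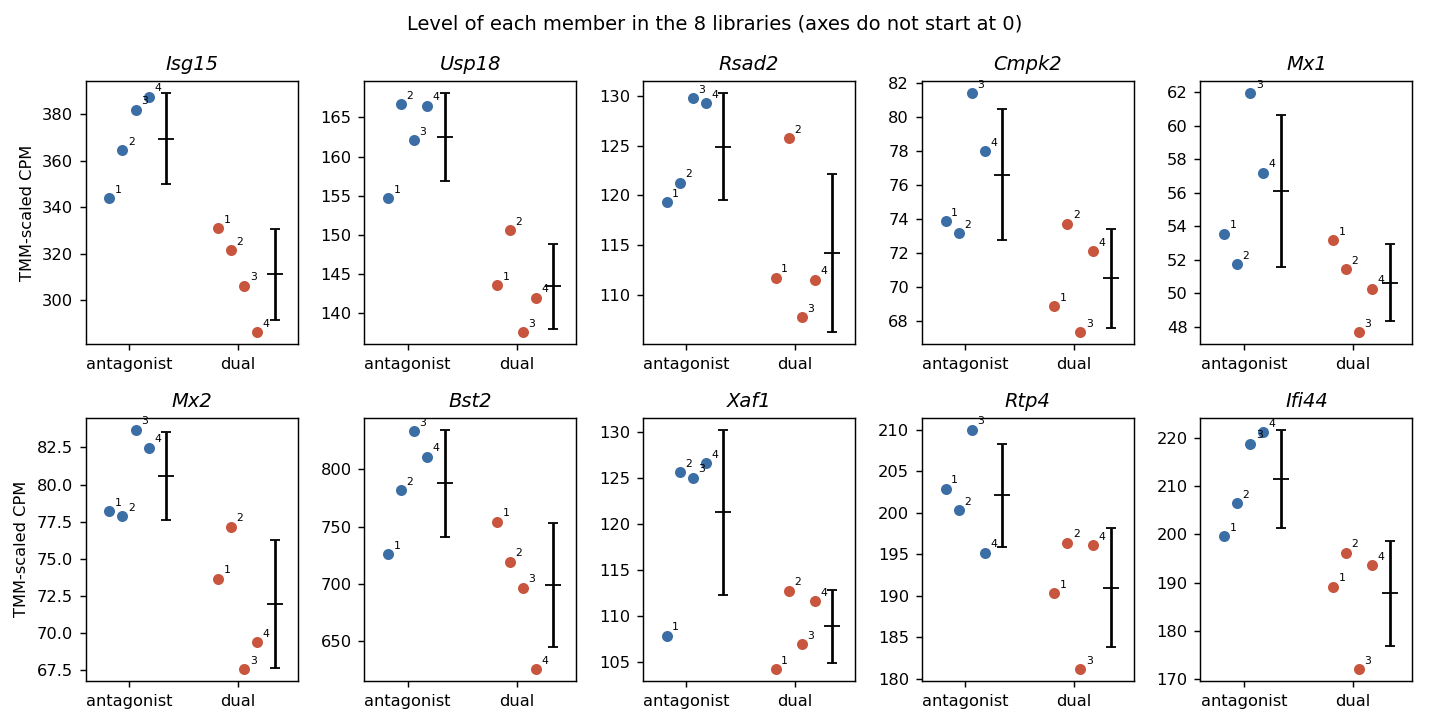
Level of each of the 10 genes in TMM-scaled CPM, with 1 point per library (blue for the A2A antagonist, red for the dual group, numbered by replicate) and bars for mean ± SD of 4 libraries; the axes do not start at 0. The groups are apart for Isg15, Usp18, Mx2 and Ifi44 and overlap for the other 6 genes.

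The 10 genes were also compared library by library. As the mean of the 10 log2 levels relative to each gene's own mean over the 8 libraries, the A2A antagonist libraries stood at 0.00, 0.05, 0.14 and 0.12 and the dual libraries at -0.06, -0.01, -0.14 and -0.10. Antagonist replicate 1 and dual replicate 2 thus stood closest to each other across the groups. Within the antagonist group replicate 1 was the lowest library for 6 of the 10 genes and replicate 3 the highest for 6, and within the dual group replicate 3 was the lowest for 7 and replicate 2 the highest for 7. Bst2 and Isg15 were instead lowest in dual replicate 4, and Rtp4 was lowest in antagonist replicate 4. Summed over the 10 genes, the level was 2060 to 2288 CPM in the A2A antagonist libraries (mean 2193 ± 102) and 1858 to 2025 CPM in the dual libraries (mean 1948 ± 86.4), 11.2% lower.

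**Figure D2:**
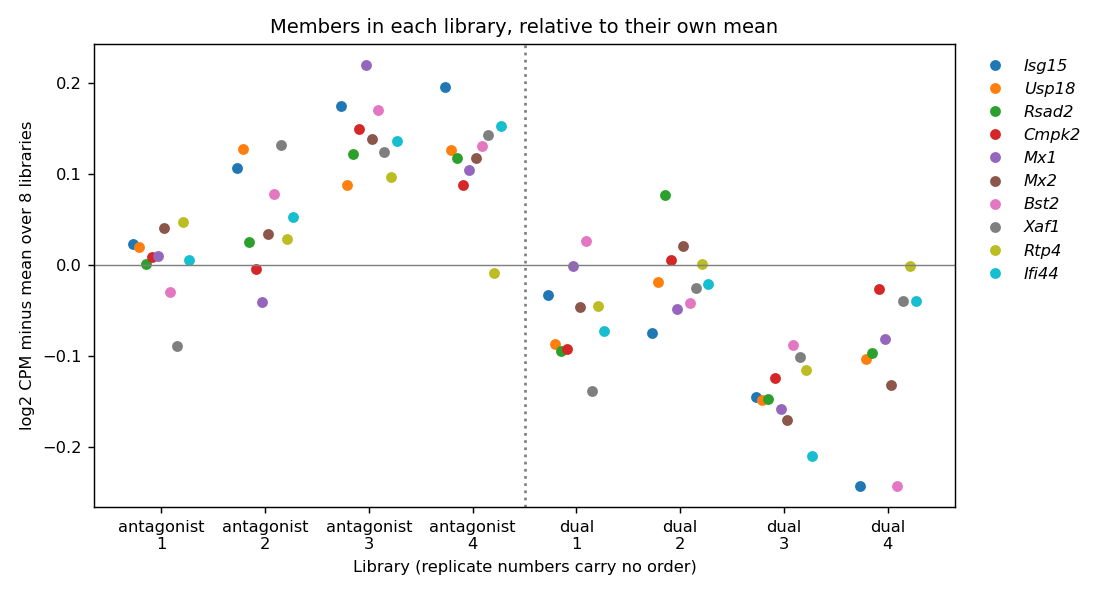
Log2 CPM of each gene minus its own mean over the 8 libraries, by library, with 1 coloured point per gene and a dotted line between the groups. Antagonist replicate 3 holds all 10 genes above 0 and antagonist replicate 4 all but Rtp4, antagonist replicate 1 and dual replicate 2 sit around 0, and dual replicates 3 and 4 hold all 10 genes below 0.

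Pairs of genes were compared within each library as a log2 ratio of counts per kilobase, in which the depth of the library cancels. For the modifier and its protease, Isg15 over Usp18, the log2 ratio was 3.07 ± 0.05 in the A2A antagonist group and 3.00 ± 0.08 in the dual group (n = 4, two-sided exact permutation test over 70 arrangements, p = 0.229, 0.687 adjusted over the 3 pairs). For the neighbours Rsad2 and Cmpk2 it was 0.65 ± 0.03 and 0.64 ± 0.06 (exact permutation p = 0.743, 0.743 adjusted), and for Mx1 over Mx2 it was -0.59 ± 0.07 and -0.57 ± 0.06 (exact permutation p = 0.686, 0.743 adjusted). The smallest p that this design allows is 0.0286, which becomes 0.0857 after adjustment where a single pair of the 3 shifts, so the adjusted test could not have passed for 1 pair alone.

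Levels between genes were compared per kilobase of the deposited gene length. Bst2 was the highest, with 873 ± 51.7 CPM per kilobase in the A2A antagonist group and 774 ± 60.2 in the dual group, followed by Isg15 with 489 ± 26.1 and 412 ± 25.8. Rtp4 (94.8 and 89.6), Usp18 (58.2 and 51.4), Ifi44 (34.5 and 30.6), Rsad2 (28.8 and 26.3), Xaf1 (25.9 and 23.2), Mx2 (22.3 and 19.9) and Cmpk2 (18.4 and 16.9) came next, in CPM per kilobase for the A2A antagonist and the dual group. Mx1 was the lowest, with 14.8 ± 1.19 and 13.4 ± 0.611 CPM per kilobase. The order was the same in both groups. Neighbours in it overlapped in range for Xaf1 and Mx2 in the A2A antagonist group and for Ifi44 and Rsad2 in the dual group, and the other neighbours were apart.

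**Figure D3:**
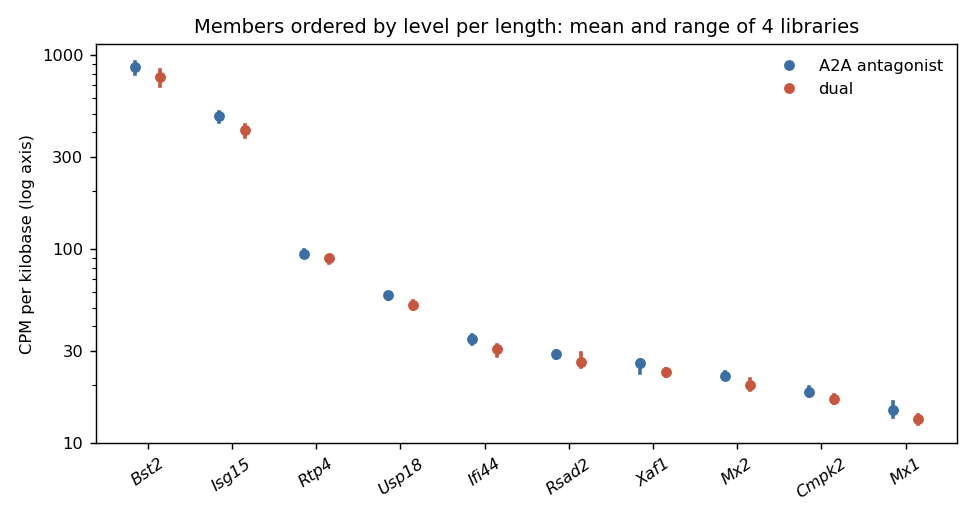
Level of the 10 genes in CPM per kilobase of gene length on a log axis, ordered from high to low, with the mean (point) and the range of 4 libraries (bar) in the A2A antagonist group (blue) and the dual group (red). Bst2 and Isg15 stand far above the other 8 genes, and the order is the same in both groups.

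Upstream of these genes, the transcripts of the type I interferons themselves were at the limit of detection. Of 10 interferon genes listed, the table held Ifnb1, with 0 to 3 counts per library, and Ifnk, with 0 to 9, and neither had enough counts to be tested. None of the 7 genes of the IFNAR receptor and its signalling was called (0 by edgeR, 0 by DESeq2), with 1 at an unadjusted p under 0.05, and their median log2 fold change was -0.04. Jak1, the kinase with the highest level in this list, was at 215 ± 1.56 and 219 ± 1.19 CPM. The 3 genes of IFN-γ reception had 0 calls by either tool, 0 at an unadjusted p under 0.05 and a median of -0.02.

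Among 14 genes that sense pathogens and induce interferon, 0 were called by edgeR and 2 by DESeq2, and 5 had an unadjusted p under 0.05, of which 3 were lower and 2 higher in the dual group. Irf7, the interferon-induced factor that amplifies interferon production, was at 795 ± 52.3 and 704 ± 45.9 CPM (log2 fold change -0.18, adjusted p = 0.114, edgeR). Of the 4 enzymes that conjugate ISG15, all 4 estimates were below 0 and 1 passed. DESeq2 also called 1 of the 4. By edgeR this was Ube2l6, the conjugating enzyme of ISG15, which fell from 158 ± 5.52 to 138 ± 4.70 CPM (log2 fold change -0.19, SE 0.037, adjusted p = 0.0358, edgeR).

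Other genes of the antiviral program had estimates of similar size to those of the 10. Of 25 further antiviral interferon-stimulated genes tested, 24 were lower and 1 higher, 18 were lower at an unadjusted p under 0.05, and the median log2 fold change was -0.14. DESeq2 called 11 of them. By edgeR 2 passed, the near-identical paralogs Ifit3 (log2 fold change -0.23, SE 0.040, adjusted p = 0.024) and Ifit3b (-0.25, SE 0.040, adjusted p = 0.024, edgeR), whose counts are uncertain between them. Ifitm3, which blocks the fusion of viruses with endosomes, had the highest level of this list, at 1425 ± 58.6 and 1321 ± 17.4 CPM (log2 fold change -0.11, adjusted p = 0.149, edgeR).

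Estimates below 0 were also frequent among genes listed for IFN-γ and for NF-kB. These lists were not built to exclude genes that type I interferon induces as well. Of 17 genes that IFN-γ induces, 15 were lower, 11 of them at an unadjusted p under 0.05, with a median of -0.12, and Psmb8, an immunoproteasome subunit, passed (168 ± 7.16 and 146 ± 6.22 CPM, log2 fold change -0.20, SE 0.039, adjusted p = 0.0393, edgeR). DESeq2 called 8 of these 17. Of 12 genes that LPS induces through NF-kB, 10 were lower, with a median of -0.12. In this list the chemokine genes Ccl3 (log2 fold change -0.37, SE 0.063, adjusted p = 0.024) and Ccl4 (-0.41, SE 0.078, adjusted p = 0.0325, edgeR) passed, DESeq2 called 6, and 8 genes were lower and 2 higher at an unadjusted p under 0.05. As for Isg15, the calls in these lists did not outlast every left-out library, since edgeR called 0 genes of the whole table without antagonist replicate 4 (1802 at an unadjusted p under 0.05) or without dual replicate 3 (2092). No list was tested against the 10 antiviral genes. In the promoter windows, the ISRE core was held by 10 of 21 windows of the further antiviral genes, 6 of 12 of the IFN-γ-induced genes and 0 of 11 of the NF-kB genes, beside the 3 of 6 given above.

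**Figure D4:**
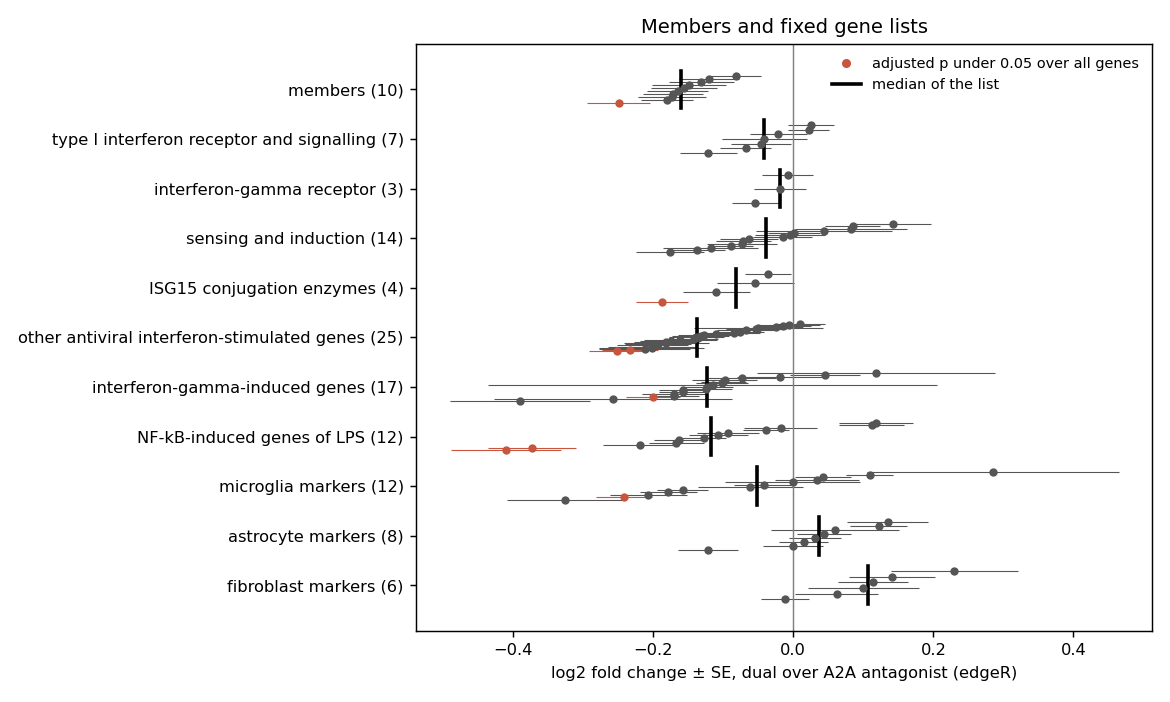
Log2 fold change ± SE (edgeR, dual over A2A antagonist) of the 10 antiviral genes and of each tested gene of 10 other lists, 1 point per gene, red where the adjusted p over all genes is under 0.05, with a black bar at the median of each list. All 10 antiviral genes lie left of 0 with a median of -0.16, the astrocyte and fibroblast lists have medians right of 0, and the receptor lists lie near 0.

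Outside the 10, the profiles of 5 genes over the 8 libraries were nearest to the mean profile of the 10, by root mean square distance of centred log2 CPM among 11052 genes whose mean log2 CPM reached 3. They were Tnfaip3, the gene of the NF-kB inhibitor A20 (distance 0.0188, log2 fold change -0.16, adjusted p = 0.0606, edgeR), Thap3 (0.0217, -0.18), Oas1a, a sensor of double-stranded RNA (0.0218, -0.18), Parp12 (0.0238, -0.13) and Tap1, a peptide transporter (0.0274, -0.13). None of the 5 passed the test, with adjusted p-values of 0.0606 to 0.164. Ranked among the same genes together with the 10 (11062 in all), the 10 themselves stood between rank 5 (Mx2) and rank 662 (Isg15) by distance from their own mean profile, with Bst2 at 593, Rtp4 at 451 and Xaf1 at 317, so many other genes lay nearer to that profile than these did.

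Marker levels of the cell types that such cultures can hold are given beside these values. The summed level of 12 microglia markers was 1568 to 1697 CPM in the A2A antagonist libraries and 1466 to 1563 CPM in the dual libraries, 7.71% lower, with 1 of 12 called (C1qa, 476 ± 29.6 and 403 ± 11.6 CPM, log2 fold change -0.24, adjusted p = 0.024, edgeR), 5 called by DESeq2 and a median log2 fold change of -0.05. The 12 were not uniform, with 8 lower and 4 higher. Csf1r, the receptor on which microglia depend for survival, was higher in every dual library (218 ± 5.47 and 235 ± 8.18 CPM, log2 fold change 0.11, SE 0.034, adjusted p = 0.171, edgeR), and Itgam, Cx3cr1 and P2ry12 had estimates above 0. The lower sum lay in the 3 C1q genes, at 943 to 1070 (1023 ± 55.4) and 846 to 907 (890.3 ± 29.3) CPM, whereas the other 9 markers summed to 624 to 638 and 619 to 659 CPM, which overlapped. The defining markers were low, with Tmem119 at 7.41 and 7.41 CPM and P2ry12 at 1.67 and 2.00 CPM. Astrocyte markers were high in both groups (summed 6087 to 6376 and 6189 to 6624 CPM), and so were fibroblast markers (2379 to 2652 and 2369 to 2986 CPM), so transcripts that mark other cells were present beside those of microglia. The study's methods report that nearly all cells were microglia when labelled with anti-CD11b antibodies. How that labelling relates to these transcript levels was not tested. Oligodendrocyte markers were at 384.8 to 419 and 357.5 to 382 CPM, endothelial at 43.1 to 55.5 and 46.2 to 57.9 CPM, mural at 160.1 to 176 and 161 to 185 CPM, and neuronal at 9.21 to 11.3 and 9.12 to 10.1 CPM. In the 6 lists other than microglia edgeR called 0 genes and DESeq2 called 1, with 2 lower and 6 higher at an unadjusted p under 0.05. None of the markers in the table was at 0 in all libraries.

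Set against the microglia markers of the same library, the summed level of the 10 genes was 1.31, 1.29, 1.38 and 1.33 times theirs in the A2A antagonist libraries and 1.38, 1.31, 1.24 and 1.19 times in the dual libraries. On this scale the mean was 3.62% lower in the dual group and the groups overlapped. With the C1q genes left out of the markers, a choice made after seeing the data, the ratio was 3.298, 3.399, 3.667 and 3.598 in the A2A antagonist libraries and 3.260, 3.187, 3.037 and 2.820 in the dual libraries, 11.9% lower and without overlap. Against the astrocyte markers the ratio was 0.351 ± 0.0221 and 0.305 ± 0.0234, 12.9% lower. The ratio to microglia markers thus depended on whether the C1q genes were counted, and the cause of their lower level was not tested. Depth was similar in the groups, with 38427491 to 45878639 counts per A2A antagonist library and 32630602 to 45544451 per dual library, and the 10 genes took 0.207% to 0.228% of all counts in the former and 0.186% to 0.203% in the latter.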

How the data were processed

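RNA was sequenced from 8 libraries, 4 a group, grouped by their titles. Per the study's methods the authors aligned poly-A RNA reads with HISAT2 and counted them per gene with featureCounts (1.5.0-p3, mm10 per the submitters' processing notes); use of strand was not stated. The deposited values used are whole raw counts of reads, unnormalized and not pooled. The authors' fold changes and p-values, also in the tables, were not used, nor were 9 per-sample columns of control libraries that belong to no sample of this series. Counts were tested with edgeR 4.0.16 (limma 3.58.1, R 4.3.3): filterByExpr (minimum count 10), TMM, quasi-likelihood F test without covariates, two-sided, Benjamini-Hochberg over 18756 genes, called under 0.05. The standard error is the log2 fold change over the root of F. DESeq2 1.42.0, other scalings, no filter, a replicate block and leaving out each library were alternatives. The procedure was also run on simulated counts, drawn with the same dispersion for every gene. Such counts are simpler than these data, so that run does not vouch for the calls. Total counts were 32630602 to 45878639 per library.

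The 10 genes and all lists were chosen with earlier results of these data known. Besides the 10, the text names genes called in each list, otherwise that with the smallest p and that with the highest level, and the 5 nearest profiles (1 gene of the signalling list that this rule would name is not reported here), and further microglia markers (Tmem119, P2ry12, Csf1r, Itgam, Cx3cr1) were chosen after their values were seen. Coordinates are those of the deposited table, equal to GENCODE M21 (GRCm38) for the 10 genes.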

Additional observations from a re-analysis of the deposited data

Results flagged for a closer look

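Xaf1 in the A2A antagonist group had 1 library far from the others. Replicate 1 was at 107.8 CPM, against 125.0, 125.6 and 126.6 CPM in the other 3, and its gap to the nearest was 0.913 of the group's range, above Dixon's critical value of 0.829 for 4 samples. It was the 1 such case in 20 groups of 4 (10 genes in each group), and chance alone gives about 1 in 20.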

How the results depend on the processing

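Over 13 alternatives each, all 130 recomputed fold changes of the 10 genes stayed below 0, their median lay between -0.19 and -0.14, and 112 stayed on their side of the threshold, 5 lost the call (all Isg15) and 13 gained it (Usp18, Mx2, Bst2, Xaf1 and Ifi44). With edgeR 39 genes were called in all (9 higher, 30 lower). The count was 39 under RLE factors and 39 under library size only. It was 366 without the low-count filter (253 lower, of 31406 tested) and 381 with DESeq2 (274 lower, of 11313 with an adjusted p). Of the 10 genes, 1 was called, beside 6 without the filter and 5 with DESeq2. Leaving out 1 library gave 0 to 172 genes called and 0 to 4 of the 10. Without antagonist replicate 1 there were 172 and 4, without antagonist replicates 2, 3 and 4 there were 5, 6 and 0 genes and 0 of the 10, and without dual replicate 3 there were 0 and 0. At an unadjusted p under 0.05, these fits with 0 genes called gave 1802 (without antagonist replicate 4) and 2092 genes (without dual replicate 3), and every left-out library left 7 to 10 of the 10 genes. The cause of these moves was not tested.

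Replicate numbers did not pair the samples. The deviations of same-numbered libraries correlated at -0.206 to -0.047, and 0 of 4 antagonist libraries matched best with its own number. With the replicate block edgeR called 17 genes and 0 of the 10, of which 9 had an unadjusted p under 0.05. The adjusted p of Isg15 was then 0.0778.

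The lowest count of these genes in any library was 1735. The spread between libraries (biological coefficient of variation 5.28%) stands beside differences of 5.5% to 15.8%.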
